A study of Mus musculus with 6 samples.

Results

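The brain library of a survey of RNA ends was set against the libraries of 5 other mouse tissues. It is 1 of 6 libraries and was chosen by its tissue label alone, with no measured value used. Its table holds 31608 lines, each a distinct tag sequence at a genomic location with a read count. The study asked which polyadenylated RNAs of adult mouse tissues carry a 5′ monophosphate, and it used parallel analysis of RNA ends (PARE). The groups are whole brain and, for comparison, lung, liver, kidney, ovary and spleen, all from adult mice of BALB-c background, with 1 library per tissue and no treatment named in the labels. All libraries were made from RNA selected for a poly(A) tail.

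A capped messenger RNA cannot be ligated to the adaptor used in PARE. An RNA can be ligated once it has been cut by an endonuclease, has lost its cap or has been shortened from its 5′ end, and each tag marks the first base of such a fragment. In brain, the RNAs that could give such ends include those of neurons, which release transmitter at synapses and carry cargo along axons, and those of glia, which form myelin and clear transmitter. In whole tissue, fewer cells of a type and less RNA per cell cannot be told apart.

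The brain table gave 33382 tags after sequences listed at 2 locations were left out, which is 3.97% of the tags of the 6 libraries. The other libraries held 493121 tags in lung, 162270 in kidney, 29213 in ovary, 78952 in liver and 42939 in spleen. Levels are given as CPM, the tags of a window or gene scaled to a library total of 1000000 tags, so that 1 brain tag equals 29.96 CPM and 1 lung tag 2.03 CPM. A count of 0 allows up to 3 tags, or 89.9 CPM in brain, 6.08 CPM in lung and 103 CPM in ovary. All intervals below are 95% intervals for counting error only. They do not cover differences between animals, for which there is no replicate, and PCR copies are not independent molecules.

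Brain ends were scattered. The 33382 tags lay at 27990 different bases, and 96.1% of those bases had a single tag. The share was 82.7% in lung, 88.4% in kidney, 95.2% in ovary, 85.3% in liver and 81.7% in spleen. These shares were taken at unequal depths, so each library was also thinned to 29213 tags. Different bases then numbered 24597 in brain, 23724 in ovary, 22531 in kidney, 22029 in lung, 19279 in liver and 18689 in spleen. Most results below are therefore sums over windows of 2 kb on 1 strand or over the windows of a gene. Genes were named without a genome of the files' build (mm9), by matching tags to RefSeq gene starts (build GRCm38.p6) and placing each end between them. Of 615 gene starts hidden from the procedure, 577 got their own gene, alone or among several. A single gene was given to 536 of them and was the right one for 535. No gene of chromosome 18 could be named, so list members there could not receive a tag. Of 34631 genes that could be named, 27025 have a strand in the reference table. For the others, Kif5a and Snap25 among them, the strand was not checked. A name reached from 1 side only is called a candidate below and does not enter gene sums.

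Some brain ends are shown by their tags, written 5′ to 3′ as the RNA strand in DNA letters. The first pair is shown because AATAAA, the hexamer that directs poly(A) addition (capitals), lies inside the commonest brain tag at the end, in Rab3a (chr8:73282474, plus strand) and Dapk3 (chr10:80655714, plus strand). Dapk3, a death-associated kinase, was chosen after its values were seen.

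Rab3a: acacacagtcAATAAAgcga

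Dapk3: ccacccccagAATAAAgctgc

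The next was the brain end with the most tags among those with no tag in the other 5 libraries. It lies on the minus strand at chr15:75395230, with Ly6h as its candidate gene, and it is shown because 25 tags shared this first base.

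Ly6h candidate: agcctggcctgaggggcatta

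The last set belongs to the microRNA Mir410 on chromosome 12. The hairpin (RefSeq, GRCm38.p6) is given with the bases after its 3′ arm in capitals, the mature 3′ arm with its seed (bases 2 to 8) in capitals, and the tag as it was deposited. The tag starts at chr12:110981995 on the plus strand, at the first base after the 3′ arm.

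Mir410 hairpin: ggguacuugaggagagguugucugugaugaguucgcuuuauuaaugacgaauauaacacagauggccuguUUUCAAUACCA

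mmu-miR-410-3p: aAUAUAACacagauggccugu

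Brain tag: tttcaataccacctgccact

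The next values describe 4 brain genes that were given with the library, and they are no independent check of its tissue label. Syt1 is the calcium sensor of synaptic vesicles, and Mobp is a protein of myelin. Kif1a and Kif5a are motor proteins that carry vesicles and other cargo along axons. Mobp had 40 tags in brain, against 2 in lung and 0 in liver, kidney, ovary and spleen. Kif1a had 45 tags in brain, against 6 in lung, 1 in kidney and 0 in liver, ovary and spleen. All 4 markers were highest in brain, and no count of theirs in another library exceeded 6.

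Kif5a had 31 tags in brain, against 3 in lung and 0 in the other 4 libraries, a ratio of 153 over lung (47.6 to 780.3). Syt1 had 27 tags in brain, against 2 in lung, 1 in liver and 0 in kidney, ovary and spleen, a ratio of 63.9 over liver (10.5 to 2614). Neither ratio covers the libraries with no tag, where a 0 allows 103 CPM in ovary and 69.9 CPM in spleen. The leading windows of Kif5a and Syt1 each had 659 CPM in brain. The tags of each marker were spread over neighbouring bases and concentrated in 1 or 2 windows. The Kif1a window at chr1:94912001-94914000 on the minus strand held 43 of the 45 brain tags at 35 different bases, with at most 3 at any of them. Syt1 was alike, with 22 of 27 tags in the window at chr10:107934001-107936000 on the minus strand, at 21 bases. Mobp had 29 tags at 25 bases of the window at chr9:120090001-120092000 on the plus strand and 8 tags at 8 bases of the window before it, where no other library had a tag.

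**Figure D1:**
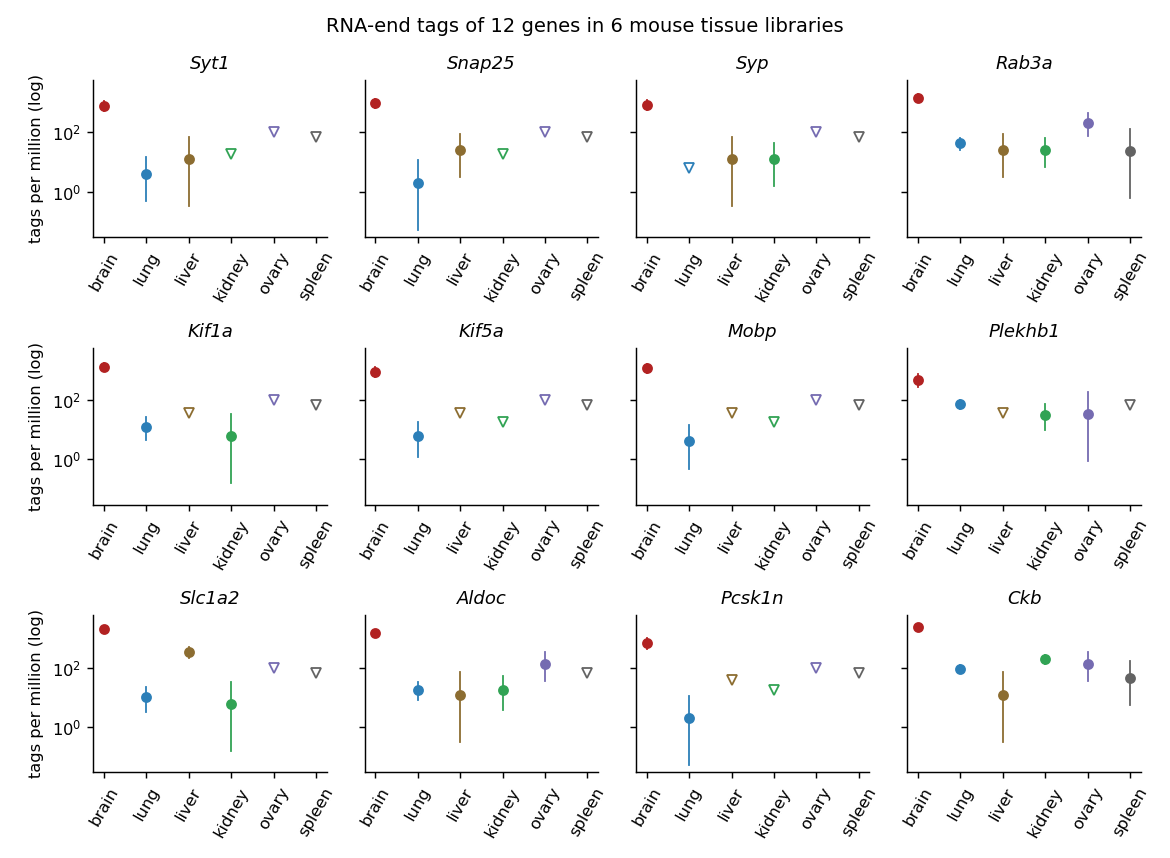
Level of 12 genes in the brain library (left) and the other 5 libraries, in CPM on a log axis. Points are levels with exact Poisson 95% intervals of the count, and open triangles mark the 3 tags that a count of 0 allows in that library. Brain is the highest of the 6 libraries for each of the 12 genes.

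Over the genome, 326 windows held at least 10 brain tags. Brain was above the highest of the other 5 libraries, with the lower interval bound over 1, in 169 of them (51.8%). These are called brain-led windows. They held 14.7% of the brain tags. In 184 windows (56.4%) brain was at least 4 times the mean of the other 5 libraries. The opposite rule, in which the lowest of the other 5 libraries exceeded brain, took 9 of 304 windows (2.96%). When the depths were scaled by trimmed means instead of totals, brain led 128 windows and was low in 26.

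**Figure D2:**
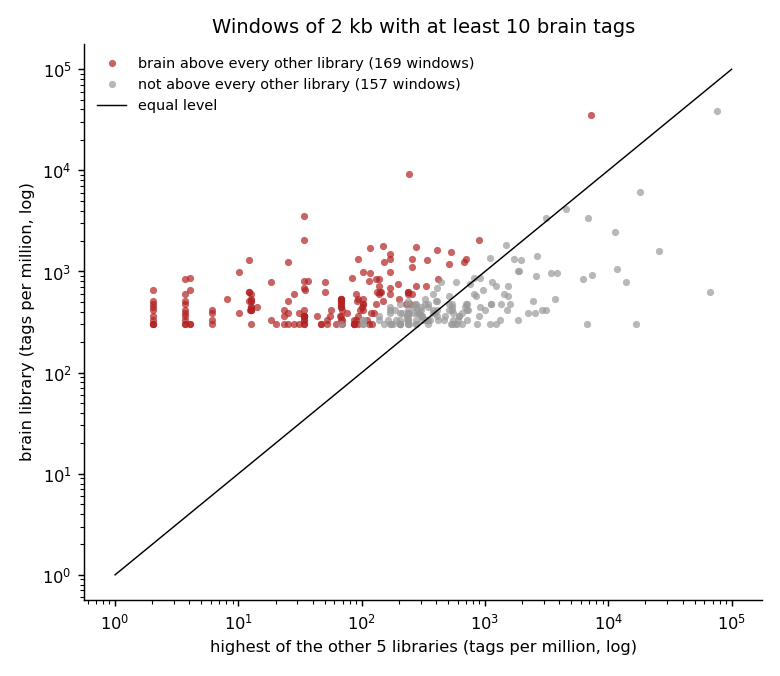
Level of the 326 windows with at least 10 brain tags, with the highest of the other 5 libraries on the horizontal axis and brain on the vertical axis, both in CPM on log axes. The 169 brain-led windows (red) lie above the line of equal level, and windows with no tag in the other 5 libraries are drawn at the 3.72 CPM that a count of 0 allows over those libraries together.

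The same rule was applied with each other library in the place of brain. It took 3.4% of the windows with at least 10 tags in lung, 15.2% in kidney, 24.7% in ovary, 42.4% in liver and 55.5% in spleen. The share in brain lies between those of liver and spleen, and the libraries differ in how many windows reach 10 tags.

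Of the 169 brain-led windows, 141 lay in a named gene, 128 genes in all, and 8 more had a candidate name. The median brain-led window had 16 brain tags on 14 bases. In 12 of the 169 windows at least 50% of the tags shared 1 base, and this was so in 24 of the 157 windows that brain did not lead. The highest other library was lung for 61 of the brain-led windows, ovary for 43, kidney for 22, liver for 21 and spleen for 12. In 10 windows no other library had a tag.

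Among those 10 windows were genes of synaptic vesicles. Snap25, a membrane fusion protein of the presynaptic terminal, had 17 tags in brain and 0 in the other 5 libraries in the window at chr2:136606001-136608000 (plus strand). The 0 was set to 3 tags over the 5 libraries together, most of whose depth is lung. By the lower interval bound, brain was at least 39.6-fold higher than those libraries together, which does not bound each library alone. The level was 509 CPM in brain, against the 103 CPM that a 0 allows in the ovary library alone. The next Snap25 window (chr2:136608001-136610000, plus strand) had 14 tags in brain, 1 each in lung and liver and 0 elsewhere, a ratio of 33.1 over liver (5.04 to 1400.1). Atp6v1g2, a subunit of the proton pump that acidifies vesicles, had 20 tags in brain and 0 elsewhere in its leading window (chr17:35374001-35376000, plus strand). By the same bound it was at least 47.8-fold higher than the 5 libraries together. Its level was 599 CPM in brain, against the same 103 CPM for ovary alone. Syngr3, a synaptic vesicle membrane protein, had 14 in brain and 0 elsewhere (chr17:24822001-24824000, minus strand). It was at least 31.5-fold higher than the 5 libraries together by that bound, and its level in brain was 419 CPM. The Ly6h candidate window had 28 in brain and 0 elsewhere, but 25 of the 28 were at the single base shown above.

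Of the 32 genes listed for the synaptic vesicle and presynapse, 29 had a tag in any library and 27 of those were highest in brain. All 29 had a brain tag. Over all genes with a tag in any library, brain was highest in 20.6%, and over those with a brain tag in 45.2%. The summed level was 12012 CPM in brain, against 308 in lung, 493 in kidney, 445 in ovary, 253 in liver and 279 in spleen. Brain was 24.4 times kidney, the next (19.1 to 31.4), the widest gap of the 11 lists. In this list 16 genes had at least 10 brain tags, and brain led all 16. Among all 421 genes with at least 10 brain tags, brain led 211 (50.1%), and it was at least 4 times the mean of the other 5 libraries in 228 (54.2%). These counts are descriptions, since a gene could reach 10 brain tags because brain was high.

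Rab3a, a small GTPase of synaptic vesicles, had 50 tags in brain, against 21 in lung, 4 in kidney, 6 in ovary, 2 in liver and 1 in spleen, a ratio of 7.29 over ovary (3.13 to 20.8). Of its 50 brain tags, 14 were the tag shown above that runs through AATAAA; 1 lung tag, 2 ovary tags and none in the other 3 libraries began at that base. Syp, a vesicle membrane protein, had 29 tags in brain, against 1 in liver, 2 in kidney and 0 in lung, ovary and spleen. The synapsins Syn1 and Syn2, which tether vesicles, had 25 and 15 brain tags. The complexins Cplx1 and Cplx2, which regulate fusion, had 18 and 17, and the GTPase Dnm1 had 22. None of these 5 genes had more than 11 tags in any other library, although lung was sampled to 14.8 times the depth of brain.

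Genes of the postsynapse and its receptors summed to 8238 CPM in brain, against 805 in lung, 308 in kidney, 479 in ovary, 266 in liver and 792 in spleen. Of 27 members, 22 had a tag in any library, and all 22 were highest in brain, beside 20.6% of all genes with a tag. Brain led 9 of the 10 members with at least 10 brain tags, beside 50.1% of all genes with as many. Gria2, a subunit of AMPA-type glutamate receptors, had 10 tags in brain, against 1 in lung and 0 elsewhere. Gria1, another subunit, had 11 in brain, against 8 in lung and 0 elsewhere. Nrgn, a calmodulin-binding protein of dendrites, had 44 tags in brain, against 127 in lung, 2 in spleen and 0 in the other 3 libraries. Its level in brain was still 5.12 times that of lung (3.55 to 7.26). Ppp3r1, the regulatory subunit of calcineurin, was the member that brain did not lead. It had 11 tags in brain and 11 in spleen.

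Genes of axonal transport and the neuronal cytoskeleton summed to 15338 CPM in brain, against 2728 in lung, 1756 in kidney, 1985 in ovary, 621 in liver and 1001 in spleen. Brain was 5.62 times lung (5.07 to 6.23). It led 18 of the 20 members with at least 10 brain tags, beside 50.1% of all genes with as many. Klc1, a light chain of the kinesin motor, had 38 tags in brain, against 27 in lung, 5 in kidney, 1 in ovary, 1 in liver and 3 in spleen. Dync1h1, the heavy chain of the opposing motor dynein, had 61 in brain, against 147 in lung, 41 in kidney, 10 in ovary, 3 in liver and 3 in spleen. Its ratio of 5.34 over ovary (2.71 to 11.7) was well below those of Kif1a and Kif5a, which were taken over lung and do not cover ovary. Map2, a microtubule protein of dendrites, had 10 tags in brain, against 2 in lung and 0 elsewhere. Tubb4a, a tubulin of neurons and oligodendrocytes, had 19 in brain, against 5 in lung and 0 elsewhere. Ina, a neuronal intermediate filament, had 19 in brain, against 1 each in lung and liver and 0 elsewhere. Stmn1, a microtubule regulator of dividing and neural cells, and Sptbn1, a spectrin of many cells, were not led by brain. Stmn1 had 20 tags in brain and 8 in ovary (2.19 times, 0.923 to 5.74), and Sptbn1 13 tags in brain and 350 in lung (0.549 times, 0.289 to 0.951).

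Myelin and oligodendrocyte genes summed to 4823 CPM in brain, against 769 in lung, 709 in kidney, 342 in ovary, 114 in liver and 140 in spleen. Brain was 6.28 times lung (5.19 to 7.57). Of 23 members, 1 lies on chromosome 18 and is not in the sum, and 20 had a tag in any library. Brain was highest in 14 of these, beside 20.6% of all genes with a tag. It led all 4 members with at least 10 brain tags, beside 50.1% of all genes with as many. Plekhb1 had 16 in brain and 36 in lung, and Gpm6b, a membrane glycoprotein, had 15 in brain and 32 in lung. They had ratios of 6.57 (3.40 to 12.1) and 6.92 (3.48 to 13.2) over lung, while Mobp had 295 (76.6 to 2523). The Mobp ratio rests on 2 lung tags and does not cover ovary, where a 0 allows 103 CPM. The leading Mobp window had 869 CPM in brain.

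Astrocyte genes did not stand out as a sum. Of the 15 with a tag in any library, 13 were highest in brain, beside 20.6% of all genes with a tag. The astrocyte list gave 14619 CPM in brain, against 3190 in lung, 2952 in kidney, 4142 in ovary, 30614 in liver and 2538 in spleen. A single member, Apoe, a lipid carrier made by both astrocytes and liver, accounted for 2120 of the 2417 liver tags and had 57 in brain. Brain led 4 of the 8 members with at least 10 brain tags, beside 50.1% of all genes with as many. Slc1a2, the main astrocyte glutamate transporter, had 68 tags in brain, against 5 in lung, 27 in liver, 1 in kidney and 0 in ovary and spleen, a ratio of 5.96 over liver (3.76 to 9.68). Aldoc, the brain form of aldolase, had 50 in brain, against 9 in lung, 3 in kidney, 4 in ovary, 1 in liver and 0 in spleen. Ndrg2 had the most tags of the list, 120 in brain, but was not led by brain. It had 258 in liver, so that its ratio was 1.10 (0.878 to 1.37).

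**Figure D3:**
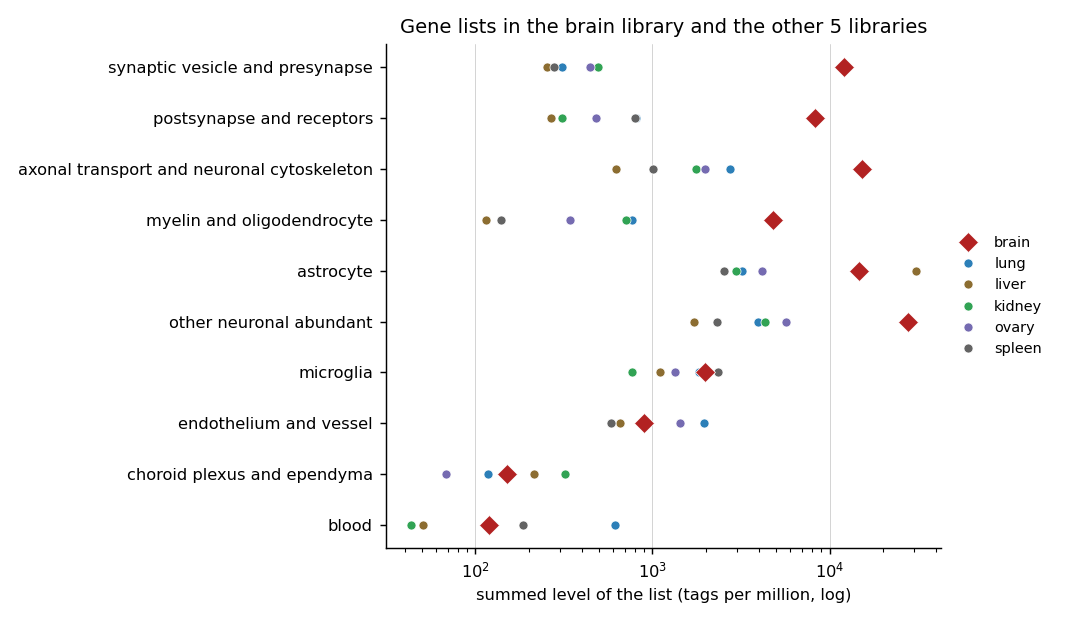
Summed level of 10 gene lists in the brain library (diamonds) and the other 5 libraries (circles), in CPM on a log axis, with a list left out for a library with no tag. The synaptic, axonal, myelin and other neuronal lists are highest in brain, the astrocyte list is highest in liver, and brain lies within the range of the other libraries for the lower 4 lists.

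Other abundant neuronal genes gave 27859 CPM in brain, against 3932 in lung, 4295 in kidney, 5682 in ovary, 1723 in liver and 2306 in spleen. Brain led 26 of the 31 members with at least 10 brain tags, beside 50.1% of all genes with as many. As above, a gene could reach 10 brain tags because brain was high. App, the amyloid precursor, had 69 tags in brain, against 392 in lung, 167 in kidney, 18 in ovary, 7 in liver and 13 in spleen, a ratio of 2.01 over kidney (1.49 to 2.67). Ckb, the brain form of creatine kinase, had 84 in brain, against 47 in lung, 32 in kidney, 4 in ovary, 1 in liver and 2 in spleen, a ratio of 12.8 over kidney (8.40 to 19.8). Pcsk1n, a secretory granule protein of neurons, had 23 tags in brain, 1 in lung and 0 in the other 4 libraries. The members that brain did not lead were Hsp90ab1, Gnb1, Gnas, Atp6v0c and Ywhag, whose ratios lay between 1.27 and 1.46.

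The median member of the synaptic vesicle list was 4.19 higher in brain than in the mean of the other 5 libraries, on the log2 scale of CPM + 10. It was 3.47 higher for the postsynapse, 2.96 for axonal transport, 2.05 for myelin, 3.56 for astrocytes and 3.73 for other neuronal genes. For the remaining lists the median was -1.01 for microglia, -1.36 for endothelium and vessel and -0.49 for choroid plexus and ependyma. It was -0.51 for blood and -5.66 for markers of the other tissues. The median of all 14687 genes with a tag was -0.27 on that scale. Lists were chosen with results of these libraries known, so these values describe the lists.

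RNAs of the imprinted region of chromosome 12, which is expressed from the maternal chromosome as long noncoding RNAs and microRNAs and from the paternal chromosome as Rtl1 and other genes, are described next. Meg3 had 23 tags in brain, against 1 in lung, 2 in kidney, 1 in ovary, 1 in liver and 0 in spleen. Rian, which hosts small nucleolar RNAs, had 32 in brain, against 4 in lung, 3 in kidney, 12 in ovary, 1 in liver and 0 in spleen, a ratio of 2.33 over ovary (1.17 to 4.98). Mirg, a host of microRNAs, had 17 in brain, against 1 each in ovary and spleen and 0 in the others. Rtl1, named after its values were seen, had 20 in brain, against 1 in lung and 0 in the others. Brain led these RNAs, as it led 50.1% of all genes with at least 10 brain tags, and they are not a list chosen without their values.

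In the leading Mirg window (chr12:110980001-110982000, plus strand), 10 of the 11 brain tags were at the base after the 3′ arm of miR-410 shown above, and the other libraries had 0 there. The enzyme Drosha cuts a microRNA hairpin out of its host RNA, which leaves a 3′ fragment that begins where the hairpin ended. The Mir3072 hairpin, also in this region, had 4 brain tags at the corresponding base and 0 in the other 5 libraries. Single brain tags, with none elsewhere, were found at Mir136, Mir431 and Mir434. With counts of 1 these 3 carry no more than their presence.

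Over the 1005 hairpins in the reference table, tags of any library reached 159, and brain tags reached 46. Brain had 263 tags at hairpins or within 30 bases after them, 0.788% of its tags (0.696 to 0.889). This compares with 0.843% in lung, 1.23% in kidney, 1.04% in ovary, 0.252% in liver and 0.363% in spleen. Of the 263 brain tags, 161 began within 1 base of the start of a mature microRNA and 85 within 1 base of the end of a 3′ arm. The start of a mature 5′ arm is itself a Drosha cut.

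The let-7 family supplied most of these brain tags. Its members share the seed GAGGUAG, shown in capitals in the 5′ arms of the 6 hairpins with at least 7 brain tags.

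mmu-let-7b-5p: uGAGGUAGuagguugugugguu

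mmu-let-7e-5p: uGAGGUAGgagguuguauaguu

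mmu-let-7d-5p: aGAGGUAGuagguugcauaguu

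mmu-let-7g-5p: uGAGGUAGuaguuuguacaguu

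mmu-let-7i-5p: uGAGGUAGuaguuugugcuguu

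mmu-miR-98-5p: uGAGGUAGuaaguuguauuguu

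Mirlet7b had 111 tags in brain, against 1772 in lung, 1111 in kidney, 130 in ovary, 92 in liver and 14 in spleen, and it lies at chr15:85537749-85537833 on the plus strand. Of the brain tags, 78 were at the first base of the 5′ arm and 31 at the base after the 3′ arm. At the first base of the 5′ arm and at the base after the 3′ arm there were 685 and 1067 tags in lung, 957 and 151 in kidney, 56 and 69 in ovary, 56 and 35 in liver, and 7 and 7 in spleen. The first base of the 5′ arm had more tags than the base after the 3′ arm in brain, kidney and liver. Mirlet7e had 22 tags in brain, all at the first base of the 5′ arm, against 47 in lung, 19 in kidney, 3 in ovary, 3 in liver and 0 in spleen. Mirlet7d had 12 in brain, against 54 in lung, 70 in kidney, 7 in ovary, 4 in liver and 0 in spleen.

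Of 62 hairpins listed as brain microRNAs, members of the chromosome 12 cluster or let-7 genes, 56 were in the reference table and 15 had a brain tag. A tag in any library was found for 22 of the listed hairpins. Mir219a-2, a microRNA of oligodendrocytes, had 2 brain tags and none elsewhere, while Mir219a-1 and Mir338 had no tag in any library. Mir9-1, Mir9-2, Mir9-3, Mir128-1, Mir128-2, Mir137, Mir153, Mir218-1 and Mir218-2 also had none. The next 3 hairpins were chosen after their values were seen. Mir1249 had 6 tags in brain, 1 in liver and 0 in the other 4 libraries, with 5 of the 6 at the base after its 3′ arm. Mir142, a microRNA of blood cells, had 2 tags in brain, against 343 in lung, 18 in kidney, 6 in ovary, 9 in liver and 35 in spleen. Mir126a, a microRNA of endothelium, had 2 in brain, against 306 in lung, 20 in kidney, 4 in ovary, 7 in liver and 0 in spleen.

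**Figure D4:**
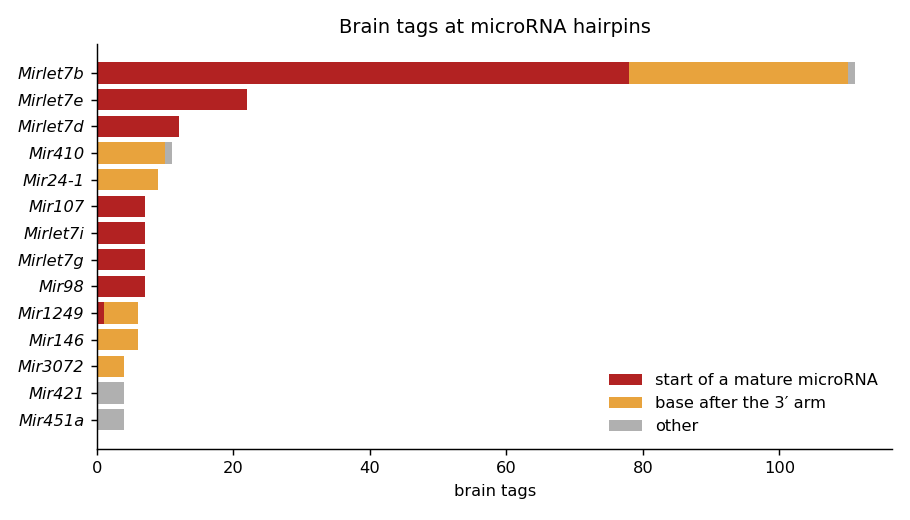
Brain tags at the 14 microRNA hairpins with at least 4 brain tags, split by where the tag begins. Mirlet7b is the longest bar with 111 tags, most of them at the start of the mature microRNA, while 10 of the 11 tags of Mir410 and all tags of Mir24-1 and Mir3072 lie at the base after the 3′ arm.

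The microglia list summed to 1977 CPM in brain, against 1841 in lung, 770 in kidney, 1335 in ovary, 1102 in liver and 2352 in spleen, but 44 of its 66 brain tags were Cst3, which many cells express. Among the defining microglia genes, Cx3cr1 and P2ry12 had 1 brain tag each, and C1qa, C1qb and C1qc had 2, 3 and 3. The endothelium and vessel list summed to 899 CPM in brain, against 1961 in lung, 887 in kidney, 1438 in ovary, 659 in liver and 582 in spleen. Cldn5, a tight junction protein of brain vessels, had 6 tags in brain and 257 in lung, and Cdh5 and Pecam1 had 0 in brain. Choroid plexus and ependyma genes had 5 tags in brain. Of 5 blood genes, Hba-a1 and Hba-a2 had 2 brain tags each, and as near-identical genes their reads cannot be assigned with certainty. The other 3, among them both beta-globin genes, had no tag placed in any of the 6 libraries, so the blood list covers the alpha-globin genes alone and gives no total for globin. These 4 lists lay within the range of the other libraries. Their part in the results above was not tested.

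Markers of the other 5 tissues summed to 2007 CPM in brain, against 97244 in lung, 85056 in kidney, 8626 in ovary, 188988 in liver and 17001 in spleen. None of the 27 members with a tag was highest in brain, and 10 had a brain tag. Trf, which encodes transferrin and is made by liver and also by oligodendrocytes, had 30 of the 67 brain tags. Scgb1a1, a secretory protein of lung airways, had 21, against 35759 in lung, 61 in kidney, 2 in ovary, 174 in liver and 14 in spleen. This is 629 CPM in brain, 72516 CPM in lung and 2204 CPM in liver. Alb had 4 brain tags and 9136 in liver, and Sftpa1, Sftpb, Sftpd, Ager, Apoa1, Apoa2, Umod and Slc34a1 had 0 in brain. The tissues were told apart by barcoded adaptors, per the labels. Whether the Scgb1a1 tags were made in brain was not tested.

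Of the 9 windows that were low in brain, 5 had a gene name. Rpl13, a ribosomal protein, had 9 tags in brain, against 1224 in lung, 210 in kidney, 21 in ovary, 65 in liver and 124 in spleen, so that the lowest other library, ovary, was 2.67 times brain (1.17 to 6.61). Prdx1 and Gpx1, both of which remove peroxides, had 2 and 4 in brain, and 8 and 12 in ovary, the library closest in depth. Snhg1, a host of small nucleolar RNAs, had 17 in brain, against 613 in lung, 290 in kidney, 72 in ovary, 86 in liver and 45 in spleen. Rpp25l, a relative of a ribonuclease P subunit, had 32 in brain, against 1326 in lung, 368 in kidney, 62 in ovary, 175 in liver and 147 in spleen. The 4 other windows had no name that could be used. None of the 9 had a lower bound over 2.

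A few single bases carried many tags. The 10 strongest ends of brain held 3397 tags, 10.2% of the library (9.85 to 10.5), and 6.63% once the strongest was left out of both sums. Brain led 18 of the 42 ends with at least 10 brain tags (42.9%). The strongest was at chr1:24619958 on the minus strand, with 1267 tags in brain, 3.80% of the library, against 5314 in lung, 12279 in kidney, 716 in ovary, 602 in liver and 18 in spleen. It was higher in kidney, at 75670 CPM, than in brain, at 37955 CPM. The next was at chr19:31161459 on the plus strand, with 970 tags in brain, against 3122 in lung, 199 in kidney, 50 in ovary, 445 in liver and 121 in spleen. Brain was 4.59 times lung there (4.27 to 4.93), and the commonest tag runs into a stretch of A: aatttcggttgggaaaaaaa.

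The third strongest end, at chr1:82084451 on the minus strand, had 307 tags in brain, against 120 in lung, 7 in kidney, 4 in ovary, 13 in liver and 3 in spleen. No gene of its strand could be placed there, and it was 37.8 times higher in brain than in lung (30.5 to 47.1). Hmg20b, a DNA-binding protein, had 202 brain tags and 8969 lung tags at 1 base, and Mtch1, a mitochondrial membrane protein, had 135 and 1706; brain led neither. Ndrg2 had 74 of its 120 brain tags at chr14:52525080 on the minus strand. At that base lung had 119, liver 77, kidney 44, ovary 7 and spleen 2. Brain led this end, with 2217 CPM in brain against 975 CPM in liver, a ratio of 2.27 (1.63 to 3.17), although it did not lead the gene as a whole.

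The end at chr6:96175201 on the plus strand lay in Tafa1, a secreted protein of brain. It had 117 tags in brain, against 10 in lung, 1 each in liver, kidney and ovary, and 0 in spleen. All but 2 of the 119 brain tags of Tafa1 were at this base, and the tags did not share 1 sequence. Base 16, counted from 1 at the 5′ end and shown in capitals in the commonest tag below, was T in 51 brain tags, C in 40, G in 13, A in 5 and unread in 8.

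Tafa1 end: actcccttgtataatTaatat

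Such disagreement was found at few ends but in many tags. It reached 20% of the tags in 5 of the 42 brain ends. Over the other 37 ends, which held 2540 of the 3975 tags, it was 0.669% at base 16 and no higher at any other base. Over all 42 ends it was 11.8% at base 16 and 8.43% at base 10. Over ends with at least 10 tags in each other library, these were 10.7% and 10.9% in kidney and 5.52% and 4.99% in ovary. They were 1.86% and 1.29% in lung, 1.54% and 1.04% in liver, and 0.779% and 0.314% in spleen. The strongest end of the library was another of the 5, with another base than G at base 16 in 30.1% of its tags. Whether they were made at these locations or at other places with a similar sequence was not tested, and no line of the 6 tables lies on the mitochondrial chromosome.

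Few exact ends were shared with other tissues. Of the 27990 brain ends, 5437 were found in any other library, 19.4% (19.0 to 19.9), and they held 30.7% of the brain tags. Lung held 15.4% of the brain ends, kidney 7.18%, liver 4.05%, ovary 2.74% and spleen 2.72%, which is the order of their depths down to liver. As shares of the other library's own ends these were 1.59% in lung, 1.86% in kidney, 2.48% in liver, 3.23% in ovary and 2.99% in spleen. With each library thinned to 29213 tags, lung held 3.13% of the brain ends (2.92 to 3.36), ovary 2.85% (2.65 to 3.07), kidney 2.52% (2.33 to 2.72), liver 2.40% (2.21 to 2.60) and spleen 2.23% (2.05 to 2.42). The interval of each library overlaps that of the next in this order, so neighbours do not differ beyond their intervals. The thinning was a single random draw. Of the 1084 brain ends with at least 2 tags, 601 were found in another library.

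Among 12337 windows reaching 10 tags over all 6 libraries together, log2 levels of brain correlated with those of ovary at r = 0.28 (rho = 0.30), lung at 0.27 (0.27), kidney at 0.22 (0.24), liver at 0.15 (0.17) and spleen at 0.14 (0.14). The points share windows chosen by their sum and depend on depth, and they are given as a description.

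Brain tags began with A in 36.4% (35.8 to 36.9), T in 28.2% (27.7 to 28.7), C in 27.1% (26.6 to 27.6) and G in 8.35% (8.05 to 8.65). The shares of C were 24.6% in lung, 26.7% in kidney, 23.5% in ovary, 17.5% in liver and 13.2% in spleen. The interval of kidney (26.5 to 27.0) overlaps that of brain. For A they were 32.7% in lung, 34.1% in kidney, 32.0% in ovary, 27.2% in liver and 42.1% in spleen. For T they were 32.7% in lung, 29.9% in kidney, 34.6% in ovary, 44.8% in liver and 36.9% in spleen. For G they were 10.1% in lung, 9.27% in kidney, 9.86% in ovary, 10.5% in liver and 7.79% in spleen. Counting each end once gave 30.1% A, 30.8% T, 30.1% C and 9.04% G in brain.

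The hexamer AATAAA, searched on the RNA strand only, lay within 4.40% of brain tags (4.18 to 4.63), against 8.80% in lung, 2.28% in kidney, 3.89% in ovary, 9.70% in liver and 38.1% in spleen. Within the brain library it was in 5.27% of the tags of brain-led windows (4.66 to 5.93) and in 4.25% of the others (4.02 to 4.49). Tags in the first 50 bases of a RefSeq gene start made up 0.252% of brain tags (0.201 to 0.311), against 0.254% in lung, 0.9996% in kidney, 0.312% in ovary, 0.125% in liver and 0.0303% in spleen.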

How the data were processed

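PARE libraries of polyadenylated RNA were sequenced from 6 tissues, 1 library each, and, per the submitters' processing notes, aligned to mm9 by Bowtie. Its version and mismatch setting were not given in the sources used here. Every line of the deposited tables gives a tag sequence with its read count, per the labels, and these counts were used as deposited. The deposited score column sets the shade in a genome browser, per the authors' description of the files, and was not used. Sequences listed at 2 locations were left out, 9.84% of the lines in brain. Minus-strand sequences were complemented and reversed.

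Tags were summed in strand windows of 2 kb and scaled to 1000000. A window or gene was called brain-led with at least 10 brain tags and a 95% lower bound over 1 for brain against the highest other library (exact conditional binomial interval). Shares have Clopper-Pearson intervals. With 1 library per tissue there is no test. Where no other library had a tag, the 0 was set to 3 tags over the 5 libraries.

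Tags identical over 20 bases to RefSeq gene starts (GRCm38.p6) fixed 1389 gene positions. An end was named when its distances from the nearest fixed starts on both sides put it in the same gene, or, where the sides disagreed, when a start within 500 kb gave 1 gene. Of the brain tags, 71.4% were named. Chromosome 18 has no sequences in the table and stays unnamed. Hairpins were matched over at least 14 bases, or 11 beside a placed hairpin. Named were the 4 markers, the 25 brain-led windows with the largest lower bound, the 10 windows and 10 ends with the most brain tags, the 10 windows lowest in brain, and list members with at least 10 brain tags. Some genes that this rule takes are not reported here by name, but they remain in the counts and sums. The members and lists were chosen with earlier results of these data known.

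Simulated libraries with the real depths were tested first. They held 79112 windows and shared 1 profile of levels with Poisson counting error only, without tissue differences or PCR copies. At each fold, 200 windows were raised in brain, drawn only from those expected to reach at least 10 brain tags once raised. Of these 200, 60.5% were called at 4-fold, 82.0% at 8-fold and 88.0% at 16-fold. The shares do not extend to windows with fewer tags. Python 3.11.15, numpy 2.4.6, pandas 2.3.3 and SciPy 1.17.1 were used.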

Additional observations from a re-analysis of the deposited data

How the results depend on the processing

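No paired analysis was possible because each tissue has 1 library. The brain-led count of 169 windows was 62 with at least 20 tags, 402 with at least 5 tags and 102 with a lower bound above 2, and 170 to 199 when 1 other library was left out. Windows at least 4 times the mean of the others, 184 in all, numbered 57 with at least 20 tags and 586 with at least 5 tags, and ranged from 176 to 192 with 1 library left out. The 9 windows low in brain were 26 with trimmed means, 3 with each end counted once and 0 with a lower bound above 2, a count of 0 from intervals with no test behind it. They numbered 9 to 17 with 1 library left out, 17 without ovary and 16 without spleen. Trimmed means raised the depth of brain 2.92 times relative to lung, and 127 of the 128 windows they called were among the 169. They cut the window ratio of Kif1a to 36.2 (106 with totals), Mobp to 73.2 (214), Kif5a to 55.6 (162) and Syt1 to 111 (325), and without lung these were 209, 90.7, 68.8 and 68.8. All 4 markers and, except with each end counted once (23), all 25 named windows kept a lower bound over 1 in every setting run. The strongest ends held 6.63% of tags without the strongest. Shares of brain ends found elsewhere fell on thinning to 3.13% (lung), 2.40% (liver), 2.52% (kidney) and 2.23% (spleen), and rose within 1 base to 24.2% (lung), 7.14% (liver), 12.5% (kidney), 4.87% (ovary) and 4.75% (spleen). The correlation with ovary was 0.40 over windows with at least 50 tags. First bases with each end counted once were 30.1% A, 30.1% C, 9.04% G and 30.8% T. Leaving out ends of mixed base and dropping the strongest window from every depth were chosen after seeing the data and gave 165 and 168 brain-led windows. Sums over single ends, also chosen afterwards, moved no list ratio beyond its interval, and brain led 25 in place of 26 other neuronal genes. Naming single tags through proteins was not run, and no cause was tested. With 1 tag at 29.96 CPM, the depth of brain limits every gene outside the 421.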

Other observations

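Values for a few genes outside the lists were noticed only after the tables had been read. Gh, the growth hormone gene of the pituitary, had 16 tags in brain, against 2 in liver and 0 in lung, kidney, ovary and spleen. Ptgds, which makes prostaglandin D2 and is known from the meninges and choroid plexus, had 56 in brain, against 2 each in lung and liver and 0 elsewhere. Cck, a neuropeptide gene, had 27 in brain, against 4 in lung, 1 in liver, 3 in kidney and 0 in ovary and spleen. Olig1, a transcription factor of oligodendrocytes, had 11 in brain, against 1 in lung and 0 elsewhere. Adcy1, a calmodulin-stimulated adenylate cyclase of neurons, had 18 in brain, 1 in ovary and 0 in the other 4 libraries.

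On chromosome 18, where no gene could be named, 5 brain-led windows were found. The window at chr18:82754001-82756000 on the plus strand had 69 tags at 59 bases in brain, against 6 in lung, 2 in kidney, 1 in ovary, 2 in liver and 1 in spleen. The window at chr18:25636001-25638000 on the minus strand had 16 in brain and 0 elsewhere.

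The 25 tags of Spaca6 in brain included the 22 tags at the first base of the let-7e 5′ arm, so its count as a gene rests on that hairpin. The Ly6h candidate end and the miR-410 end were both brain-only and both concentrated on 1 base, unlike the marker genes, whose tags were spread.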
